A study of Mus musculus with 6 samples.

Results

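The chemokines and chemokine receptors of the mouse were examined in growth plate chondrocytes that carry a conditional Lkb1 mutation and in control chondrocytes. Members were chosen by symbol alone, as genes named Ccl, Ccr, Cxcl, Cxcr or Ackr followed by a digit, together with Cx3cl1, Cx3cr1 and Xcr1. Of 19938 genes with a probe set annotated to exactly 1 gene, 55 are members: 33 ligands, 18 receptors and 4 atypical receptors. The RNA came from the hindlimb growth plates, the cartilage discs that lengthen the femur and tibia, at postnatal day 30. There were 3 Lkb1 mutant and 3 control samples, each on its own Affymetrix array, and both groups had the same mixed FVB, 129S6 and C57CL/6 background. Lkb1 is the older name of Stk11, a kinase that activates AMPK and its relatives; the Cre driver, the allele and the genotype of the controls are not given in the sources used here. Replicates are called biological, and nothing says whether each came from a separate animal or litter, so p-values measure only the spread between these samples.

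Chemokines are small secreted proteins that form gradients along which leukocytes move. They are named by the spacing of their first cysteines, as CC, CXC and CX3C ligands. Most act through receptors coupled to inhibitory G proteins, while the atypical receptors of the Ackr group bind and remove ligands without activating G proteins. In bone, Cxcl12 made by stromal cells holds blood cell precursors in the marrow through Cxcr4, and ligands of Cxcr2 draw neutrophils out of it.

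Levels are log2(intensity + 1) of the deposited probe set values, listed for replicates 1, 2 and 3 in that order, and a difference is the mutant mean minus the control mean on that log2 scale. Levels of different probe sets are not on a common scale, so only the same gene is compared between arrays. Array medians lay between intensities of 82.4 and 90.5, and 3 arrays in a group limit the precision of every value. Stk11 itself (probe set 10364683) was at 7.39, 7.51 and 7.52 in the mutant arrays and 8.68, 9.08 and 9.67 in the control arrays, a difference of -1.67 (SE 0.22, adjusted p = 0.00387) that was -1.21 without control replicates 2 and 3; whether its probes lie in the deleted part was not analysed here. The 8 chondrocyte markers, Col2a1, Acan and Sox9 among them, exceeded the background on all arrays, with 0 of 8 called. Markers of marrow cells separated the groups and also differed among the controls: a marrow mean, taken over 27 markers of red cell, neutrophil and B cell lineages, stood at 6.14, 6.09 and 5.87 in the mutant arrays and 8.41, 9.07 and 9.78 in the control arrays. Values without control replicates 2 and 3, which had the most marrow signal, are therefore given beside the differences they move by more than the spread between replicates, and beside some others; such a comparison keeps 1 control and has no test.

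Olfactory receptor genes, which cartilage is not known to use, served as the background. Their 1035 probe sets had 95% points of 6.49, 6.73 and 6.52 in the mutant arrays and 6.4, 6.59 and 6.65 in the control arrays, and a member is called above background where it exceeds the point of its own array. On all arrays of at least 1 group, 28 of 55 members (50.9%) were above it, against 55.1% of all genes with a probe set of 1 gene. On all 6 arrays the count was 17 of 55 (30.9%), against 46.9% of all genes. A further 8 members were above background on all control arrays only, and 3 on all mutant arrays only. The 8 were Ccl1, Ccl6, Ccl28, Cxcl2, Cxcl9, Cxcl11, Ccr1 and Cxcr2, and the 3 were Ccl7, Ccl19 and Cxcl12. Another 17 members exceeded it on 0 of 6 arrays, 11 of them receptors. With the stricter 99% point of the olfactory receptor probe sets 17 members passed in place of 28, so 11 of the 28 lie close to the background.

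Ackr3 and Cxcl14 were above background on all 6 arrays, and neither passed the test. Ackr3 encodes a receptor that takes up Cxcl12 and Cxcl11. It was at 10.07, 10.13 and 10.09 in the mutant arrays and 10.20, 10.17 and 10.06 in the control arrays, and its difference of -0.04 (95% interval -0.24 to 0.15, adjusted p = 0.771) was within the spread between replicates. Cxcl14, a chemokine made by epithelia and stroma without inflammation, was at 10.39, 10.15 and 10.42 in the mutant arrays and 10.16, 9.79 and 9.07 in the control arrays. The mutant arrays lay close together while the control arrays spread over more than 1 log2 unit, and the groups overlapped. Its difference of 0.64 (95% interval 0.06 to 1.23, before adjustment) did not pass (adjusted p = 0.135); without control replicate 1 it was 0.89 with an adjusted p of 0.0265, and without control replicates 2 and 3 it was 0.16.

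Setting the mutants against the controls asks which of these transcripts differ in growth plates with mutated Lkb1. Of the 50 members that passed the filter on dim probe sets, 12 passed an adjusted p of 0.05 (24.0%), against 14.7% of the 17020 genes tested. Decreases made up most of them: 8 of 50 fell (16%), namely Cxcr2, Cxcl2, Cxcr4, Ccl6, Ccr1, Ccr9, Ccl5 and Ccl1, against 6.82% of all genes. The 4 that rose (8%), namely Ccl19, Ackr4, Cxcl16 and Cx3cl1, are a share close to the 7.84% of all genes. The median difference of the 50 was -0.04, against 0.03 for all genes tested. Groups did not overlap for 17 of 50 members (34.0%), a share close to the 36.7% of all genes. Without mutant replicate 1 or without mutant replicate 3 the count of increases was 2, and without mutant replicate 3 the count of decreases was 5.

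**Figure D1:**
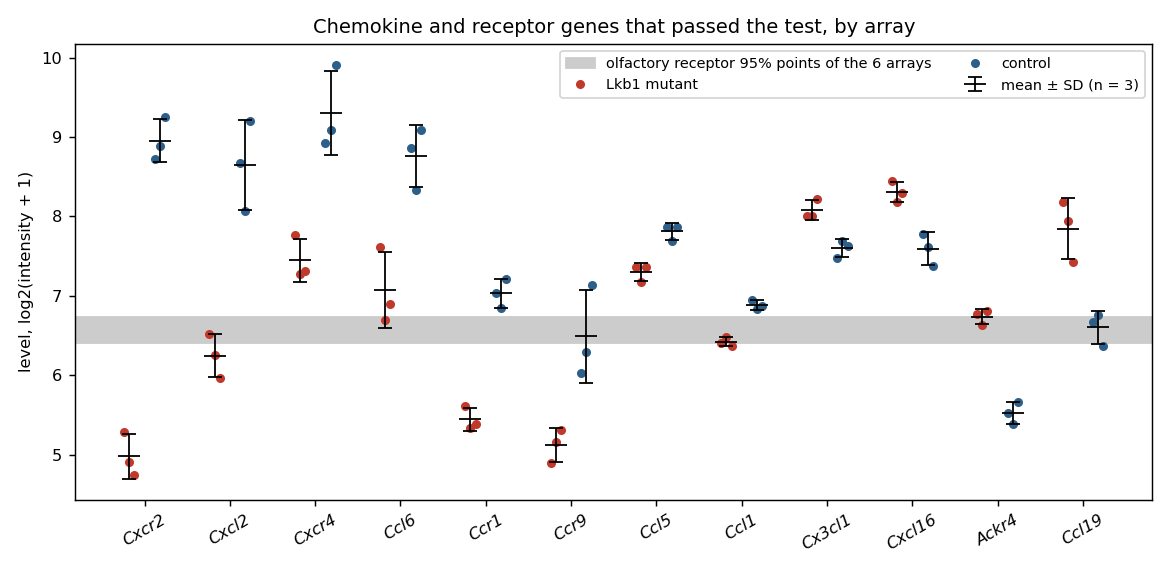
Level of the 12 members that passed the test on each of the 6 arrays, as log2(intensity + 1); points are arrays, bars the mean ± SD of 3 Lkb1 mutant (left of each pair) and 3 control arrays, and the grey band spans the olfactory receptor 95% points. Cxcr2 lies between 4.74 and 5.29 in the mutant arrays and between 8.72 and 9.25 in the control arrays, and the mutant levels of Cxcr2, Ccr1 and Ccr9 lie under the band.

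Among the receptors, 4 fell and 0 rose of the 15 tested. Cxcr2, through which neutrophils follow Cxcl1, Cxcl2 and related ligands, was at 5.29, 4.90 and 4.74 in the mutant arrays and 8.72, 8.89 and 9.25 in the control arrays. It was above background on all control arrays and below it on all mutant arrays, with no overlap. The difference was -3.98 (SE 0.18, adjusted p = 0.000173) and lay between -4.13 and -3.45 under 14 alternatives, all of which kept the call; without control replicates 2 and 3 it was -3.74. Since no mutant array measured Cxcr2 above background, its size is better given as a bound, at least 5.19-fold lower in the mutants when their level is set at the background. That bound takes the higher of the measured level and the olfactory receptor 95% point on each mutant array. Here and below it compares group means and allows for the background only. The spread between replicates is not in it, so the smallest fold that the samples allow can be lower. In such whole-tissue RNA, fewer cells of a type and less RNA per cell cannot be told apart.

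Cxcr4, the Cxcl12 receptor of blood cell precursors and lymphocytes, was at 7.76, 7.27 and 7.31 in the mutant arrays and 8.92, 9.09 and 9.91 in the control arrays. All 6 arrays were above background and every mutant array lay below every control array. Its difference was -1.86 (SE 0.26, adjusted p = 0.00461), 3.63-fold lower in the mutants, with 14 of 14 alternatives past the threshold. Control replicate 3 had the highest Cxcr4 level and also the most marrow signal, and a link between them was not tested. Without control replicates 2 and 3 the Cxcr4 difference was -1.47. Ccr1, a receptor of myeloid cells for Ccl3, Ccl5 and other CC ligands, was at 5.61, 5.33 and 5.39 in the mutant arrays and 7.04, 6.84 and 7.21 in the control arrays. It exceeded background in all controls and in 0 of 3 mutants, and the measured difference of -1.59 (adjusted p = 0.000542) corresponds to at least 1.37-fold lower in the mutants by the same bound.

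Ccr9, the receptor of the gut and thymus chemokine Ccl25, was at 4.89, 5.16 and 5.31 in the mutant arrays and 6.03, 6.29 and 7.14 in the control arrays. A single control array, replicate 3, was above background, so no fold is given. The difference of -1.37 passed (SE 0.27, adjusted p = 0.0165) but lost its call without mutant replicate 1, 2 or 3 (adjusted p of 0.0678, 0.0572 and 0.0503), and was -0.91 without control replicates 2 and 3. Ccr7, which guides lymphocytes and dendritic cells to Ccl19 and Ccl21, was at 7.60, 7.41 and 7.60 in the mutant arrays and 8.01, 7.82 and 8.38 in the control arrays. No mutant array reached the lowest control array, yet the difference of -0.54 (SE 0.15, 95% interval -0.88 to -0.19, before adjustment) missed the threshold with an adjusted p of 0.0529. It lay near that threshold under 14 alternatives, with adjusted p from 0.0403 to 0.171 and 7 of 14 past it, among them quantile normalisation (0.0443) and the fit without control replicate 2 (0.0469).

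Cx3cr1, the fractalkine receptor of monocytes and macrophages, exceeded background by little on all arrays, at 6.56, 6.74 and 6.60 in the mutant arrays and 6.43, 6.70 and 6.84 in the control arrays. The groups overlapped, with a difference of -0.02 (95% interval -0.31 to 0.26, adjusted p = 0.919) whose sign turned when single arrays were left out and that was 0.20 without control replicates 2 and 3. The other 13 receptors, Ccr1l1, Ccr2, Ccr3, Ccr4, Ccr6, Ccr8, Ccr10, Cxcr1, Cxcr3, Cxcr5, Cxcr6 and Xcr1 with the above-named Ccr9, were not above background on all arrays of either group. Cxcr5, the B cell follicle receptor, was too dim for the filter, at 4.28, 4.69 and 4.53 in the mutant arrays and 5.48, 5.51 and 5.99 in the control arrays, all below background.

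Markers of several blood cell types differed between the groups, in both directions. For neutrophils, 11 of 12 markers fell, and the number above background was 3 of 12 on all mutant arrays and 12 of 12 on all control arrays. Their summed intensity was 1512 to 3849 in the mutants and 11496 to 25315 in the controls. B lymphoid markers fell in 8 of 9 cases, with sums of 527 to 609 in the mutants and 2337 to 4099 in the controls. For T cells 0 of 6 tested markers were called, and of 7 measured 1 was above background on all mutant arrays and 0 on all control arrays. Of 6 eosinophil and mast cell markers tested, 2 fell and 0 rose. Macrophage markers went the other way, with 7 of 9 higher in the mutants. No marker in these lists had an intensity of 0 on any array. The part of these cell types in the receptor differences was not tested.

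Of the 4 atypical receptors, Ackr4 rose and the other 3 did not pass. Ackr4, which scavenges Ccl19, Ccl21 and Ccl25, was at 6.77, 6.63 and 6.81 in the mutant arrays and 5.52, 5.39 and 5.66 in the control arrays. It exceeded background on 2 of 3 mutant arrays and on 0 of 3 control arrays, with no overlap. The measured difference was 1.21 (SE 0.10, adjusted p = 0.000718) and passed under all 13 alternatives in which it was tested. Since mutant replicate 2 was itself below the background of its array, no fold is given. Ackr2, a scavenger of inflammatory CC ligands, was at 7.73, 7.60 and 7.56 in the mutant arrays and 7.10, 7.52 and 7.61 in the control arrays. Mutant replicate 1 was the highest array and control replicate 1 the lowest, the groups overlapped, and the difference of 0.22 did not pass (adjusted p = 0.362); it was 0.53 without control replicates 2 and 3. Ackr1, the Duffy antigen of red cells and venules, was at 7.10, 6.88 and 6.85 in the mutant arrays and 6.95, 7.04 and 8.14 in the control arrays. A single array, control replicate 3, was high, and without that array the difference of -0.43 (adjusted p = 0.387) was -0.05.

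**Figure D2:**
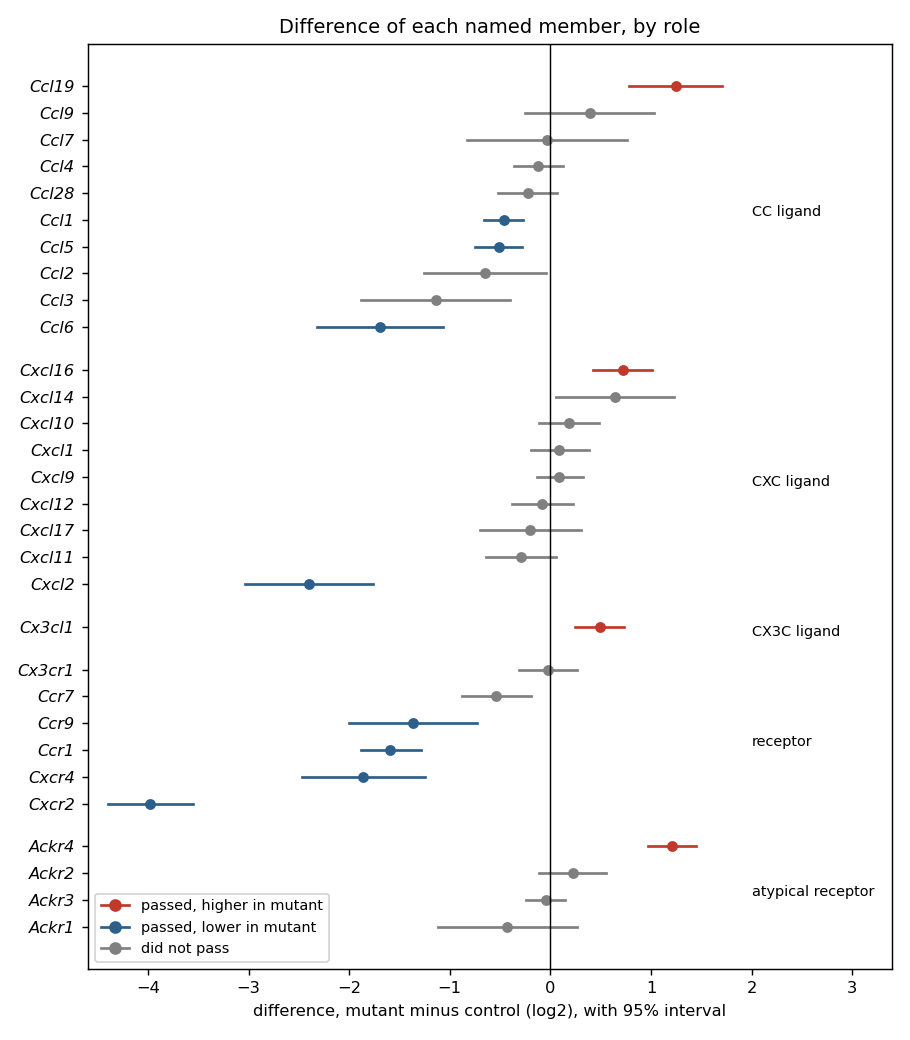
Difference of the 30 named members, mutant minus control on the log2 scale, with the 95% interval before adjustment, grouped by role; red and blue mark members that passed the test with higher or lower mutant levels, grey those that did not. The 8 members that fell, Cxcr2 (-3.98) and Cxcl2 (-2.40) among them, lie below 0 and the 4 that rose above it; measured differences of Cxcr2, Ccr1, Ccr9, Ccl1 and Ackr4 include a group with no array above background, so their sizes and order are not settled.

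Of 12 CXC ligands tested, Cxcl16 rose, Cxcl2 fell and the other 10 did not pass. Cxcl2, a neutrophil attractant that binds Cxcr2, was at 6.52, 6.25 and 5.97 in the mutant arrays and 8.67, 8.07 and 9.20 in the control arrays. All control arrays were above background, against a single mutant array (replicate 1), and the groups did not overlap. The difference was -2.40 (SE 0.28, adjusted p = 0.00202), lay between -2.69 and -2.13 with the call kept under 14 alternatives, and was -2.43 without control replicates 2 and 3. Cxcl1, which binds the same receptor, was at 8.72, 8.82 and 8.56 in the mutant arrays and 8.50, 8.51 and 8.81 in the control arrays. Its groups overlapped, and the difference of 0.09 had a 95% interval of -0.19 to 0.38 (adjusted p = 0.664), which lies outside the interval of Cxcl2 (-3.04 to -1.76). A test of the difference between the 2 genes was not run.

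Cxcl1, Cxcl2 and their paralogue Cxcl3 are known in mice and humans as targets of NF-kB, a transcription factor of inflammation. Their promoters are shown because they share an NF-kB motif while Cxcl2 fell, Cxcl1 did not pass and Cxcl3 was too dim to be read. The windows reach from 250 bases before to 50 after the start of the gene and come from RefSeq (build GRCm38.p6, chromosome 5, plus strand). Capitals mark matches to the motif GGAANTTCC, which reads the same on both strands, and sequences run 5′ to 3′.
Cxcl1 (chr5:90890995-90891294): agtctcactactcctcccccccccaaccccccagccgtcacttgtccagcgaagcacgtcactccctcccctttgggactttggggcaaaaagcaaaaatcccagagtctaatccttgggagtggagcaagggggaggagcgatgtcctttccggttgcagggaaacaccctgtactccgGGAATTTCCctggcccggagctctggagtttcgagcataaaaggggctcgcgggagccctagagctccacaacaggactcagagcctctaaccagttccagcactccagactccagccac
Cxcl2 (chr5:90903649-90903948): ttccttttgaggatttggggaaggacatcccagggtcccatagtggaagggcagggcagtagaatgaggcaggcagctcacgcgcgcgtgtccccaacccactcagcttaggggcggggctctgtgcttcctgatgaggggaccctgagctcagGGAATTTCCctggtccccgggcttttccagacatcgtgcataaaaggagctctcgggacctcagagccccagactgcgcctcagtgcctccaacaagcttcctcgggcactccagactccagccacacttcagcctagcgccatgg
Cxcl3 (chr5:90785851-90786150): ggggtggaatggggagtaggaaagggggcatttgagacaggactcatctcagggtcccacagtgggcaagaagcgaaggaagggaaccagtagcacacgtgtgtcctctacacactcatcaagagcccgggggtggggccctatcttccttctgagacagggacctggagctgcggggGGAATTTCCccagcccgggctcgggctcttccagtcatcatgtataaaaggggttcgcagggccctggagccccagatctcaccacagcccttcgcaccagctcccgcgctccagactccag

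Each of the 3 windows holds GGAATTTCC once, beginning at position -70 in Cxcl1, -96 in Cxcl2 and -72 in Cxcl3, counted from the start of the gene. Of 41 members with such a window, 7 had a match to the motif, against 1.07% of the 27025 genes searched. By outcome, a match was present in 0 of 3 members that rose, 2 of 7 that fell (Cxcl2 and Ccl1) and 5 of 28 that were tested and not called. Other motifs searched were C/EBP (TTGCNNAA, in 2 of 41 members and 12.2% of genes), PU.1 (GAGGAAGT, in 1 of 41 and 3.69%) and the TATA box (TATAAA, in 14 of 41 and 15.7%), each on both strands. The NF-kB motif was shortened to this core after the members' windows had been searched with a longer, looser pattern that more members and more of all genes matched, so its share is a description that depends on the pattern chosen. These matches describe letters in a window and not binding. Cxcl3 was below background on every array, at 5.59, 5.96 and 5.67 in the mutant arrays and 5.72, 5.29 and 5.65 in the control arrays, and did not pass (difference 0.19, adjusted p = 0.45).

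Cxcl16, a membrane-bound chemokine that also takes up oxidised lipoprotein and binds Cxcr6, was at 8.44, 8.18 and 8.30 in the mutant arrays and 7.78, 7.62 and 7.37 in the control arrays. Every array was above background, and every mutant array exceeded every control array. The mutants were 1.64-fold higher (difference 0.72, SE 0.13, adjusted p = 0.0112). Leaving out mutant replicate 1 or 3 ended its call (adjusted p of 0.0507 and 0.0534), and the difference was 0.52 without control replicates 2 and 3. Its receptor Cxcr6 was below background on all arrays.

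Cxcl12, the ligand of Cxcr4 and Ackr3, was near background at 6.63, 6.89 and 6.78 in the mutant arrays and 6.90, 7.02 and 6.62 in the control arrays. The groups overlapped, and its difference of -0.08 (95% interval -0.38 to 0.22, adjusted p = 0.72) turned to 0.01 without control replicate 2. The interferon-induced ligands of Cxcr3 did not pass either: Cxcl9 differed by 0.09 (adjusted p = 0.583), Cxcl10 by 0.19 (0.38) and Cxcl11 by -0.29 (0.251), which was -0.01 without control replicates 2 and 3. Their receptor Cxcr3 was below background on all arrays. Cxcl17, a chemokine of mucosal surfaces, was at 7.54, 7.71 and 7.0 in the mutant arrays and 7.27, 7.85 and 7.73 in the control arrays, with overlapping groups (difference -0.20, adjusted p = 0.593; 0.15 without control replicates 2 and 3).

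Of 18 CC ligands tested, 3 fell and 1 rose. Ccl6, a mouse chemokine of myeloid cells that acts through Ccr1, was at 7.61, 6.70 and 6.90 in the mutant arrays and 8.86, 8.33 and 9.09 in the control arrays. Mutant replicate 1 was well above background, replicate 3 less so and replicate 2 just below it, while all controls were far above it and the groups did not overlap. The difference was -1.69 (SE 0.27, adjusted p = 0.0072), it passed under 14 of 14 alternatives, and it was -1.80 without control replicates 2 and 3. Ccl5, a T cell and platelet chemokine that binds Ccr1 and Ccr3, was at 7.36, 7.17 and 7.36 in the mutant arrays and 7.87, 7.69 and 7.87 in the control arrays. The spread within each group was small and the groups did not overlap, with a difference of -0.51 (SE 0.10, adjusted p = 0.0154); the adjusted p was 0.068 without mutant replicate 2 and 0.0582 without mutant replicate 3. Ccl1, the ligand of Ccr8, was at 6.41, 6.48 and 6.37 in the mutant arrays and 6.95, 6.83 and 6.87 in the control arrays. These levels lie close to the background points, above them in all controls and in 0 of 3 mutants. The difference was -0.46 (adjusted p = 0.012), and the mutants were at least 1.24-fold lower by the bound; leaving out mutant replicate 1 or 3 ended the call (adjusted p of 0.0524 and 0.0707), and the difference was -0.53 without control replicates 2 and 3.

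Ccl3, a macrophage inflammatory protein that binds Ccr1, was at 8.93, 8.12 and 7.84 in the mutant arrays and 9.13, 9.21 and 9.99 in the control arrays. No mutant array reached the lowest control array, but mutant replicate 1 came within 0.2 log2 units of it. Its difference of -1.14 (SE 0.32, 95% interval -1.88 to -0.40, before adjustment) had an adjusted p of 0.0518. That adjusted p ranged from 0.0304 to 0.17 under 14 alternatives with 7 of 14 past the threshold, among them quantile normalisation (0.0465) and the fits without mutant replicate 1 (0.0304) and without control replicate 1 (0.0403). Ccl4, the close relative of Ccl3, was at 7.04, 7.03 and 7.08 in the mutant arrays and 7.05, 7.09 and 7.36 in the control arrays and did not pass (difference -0.12, 95% interval -0.36 to 0.13, adjusted p = 0.517). Ccl2, the main monocyte attractant through Ccr2, was at 8.02, 7.47 and 7.27 in the mutant arrays and 8.52, 8.48 and 7.72 in the control arrays. Control replicate 3 lay among the mutant levels, and the difference of -0.65 (adjusted p = 0.144) was -0.91 with an adjusted p of 0.0319 without that array. Ccl7, another Ccr2 ligand, was at 7.66, 7.19 and 7.0 in the mutant arrays and 7.95, 7.45 and 6.54 in the control arrays; the control arrays spread more widely than the mutant arrays, and the difference of -0.03 (adjusted p = 0.963) changed sign when single arrays were left out and was -0.67 without control replicates 2 and 3.

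Ccl19, which recruits lymphocytes and dendritic cells through Ccr7, rose. It was at 8.18, 7.94 and 7.42 in the mutant arrays and 6.67, 6.76 and 6.37 in the control arrays. All mutant arrays were above background, against control replicates 1 and 2, and the groups did not overlap. The difference was 1.25 (SE 0.20, adjusted p = 0.00733), 2.37-fold, with 14 of 14 alternatives past the threshold, and 1.18 without control replicates 2 and 3. The array holds 5 probe sets annotated to Ccl19, with differences of 1.15, 1.34, 1.25, 1.34 and 1.30; the gene has near-identical copies in the genome listed as pseudogenes, so signal of these copies cannot be told apart. Ccl9, which myeloid cells and osteoclasts make and which binds Ccr1, was at 9.70, 8.60 and 8.94 in the mutant arrays and 8.99, 8.45 and 8.64 in the control arrays. Mutant replicate 1 was the highest array and mutant replicate 2 lay among the controls, and the difference of 0.39 did not pass (95% interval -0.25 to 1.03, adjusted p = 0.402); it was 0.08 without mutant replicate 1 and 0.63 without mutant replicate 2. Ccl28, a mucosal ligand of Ccr10, differed by -0.22 (adjusted p = 0.295), and by -0.03 without control replicates 2 and 3.

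Cx3cl1, or fractalkine, a membrane-bound ligand of endothelium and neurons, is the only CX3C ligand. Its levels were 8.01, 8.01 and 8.22 in the mutant arrays and 7.47, 7.69 and 7.63 in the control arrays. Each array was above background and each mutant array exceeded each control array, by a small difference of 0.49 (SE 0.10, adjusted p = 0.0213). The call was lost without mutant replicate 1 (adjusted p = 0.0596), 2 (0.0623) or 3 (0.0992), and the difference was 0.61 without control replicates 2 and 3. Markers of some other cell types were higher in the mutants alongside the 4 members that rose. Of macrophage markers 7 of 9 rose, with sums of 3000 to 4068 in the mutants and 1971 to 2316 in the controls. Endothelial markers rose in 5 of 8 cases, with sums of 1321 to 1574 in the mutants and 791 to 966 in the controls. Fibrous tissue markers rose in 5 of 6 cases, with sums of 15424 to 17103 in the mutants and 6307 to 7850 in the controls. Of 5 marrow stroma markers 2 rose and 0 fell, and of 5 osteoclast markers 1 rose and 1 fell. None of these markers was at 0 on any array, and their part in the 4 increases was not tested.

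**Figure D3:**
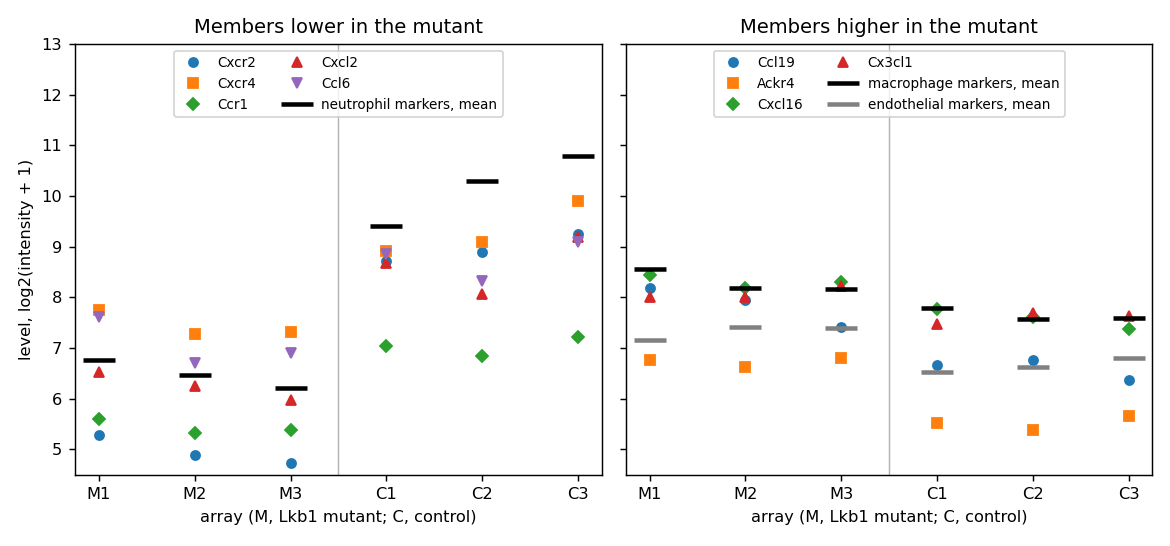
Level on each array, as log2(intensity + 1), of 5 members that fell with the mean of 12 neutrophil markers (left panel) and of the 4 members that rose with the means of 9 macrophage and 8 endothelial markers (right panel); M1 to M3 are Lkb1 mutant and C1 to C3 control arrays. The neutrophil mean is 6.77, 6.46 and 6.22 in the mutant arrays and 9.40, 10.29 and 10.79 in the control arrays. Among the controls this mean, Cxcr2 and Cxcr4 rise from C1 to C3, while Ccr1, Cxcl2 and Ccl6 are lowest in C2. Of the 12 markers only Csf3r, at 8.43, 8.28 and 8.90 in the control arrays, is lowest in C2, and all the others rise from C1 to C3.

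Many chemokine genes arose by duplication and lie in clusters. Measured differences varied within a cluster, and differences between genes were not tested. On chromosome 11 the ligands lie in the order Ccl5, Ccl9, Ccl6, Ccl3 and Ccl4, with differences of -0.51, 0.39, -1.69, -1.14 and -0.12. Of these Ccl5 and Ccl6 passed, and Ccl3 missed the threshold by little (adjusted p = 0.0518). On chromosome 5 Cxcl1, the close neighbour of Cxcl2, differed by 0.09. Cxcl9, the next member on the other side, also differed by 0.09 but lies much farther from Cxcl2. Among the receptor genes of chromosome 9 from Ccr9 to Ccr2, Ccr9 and Ccr1 fell. The others tested, Cxcr6 (0.30), Xcr1 (-0.07), Ccr3 (-0.54) and Ccr2 (-0.38), did not pass. These others were below background on all arrays, so a change shared with Ccr1 could have been missed. Whether probes of close relatives also bind each other's transcripts was not analysed here.

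**Figure D4:**
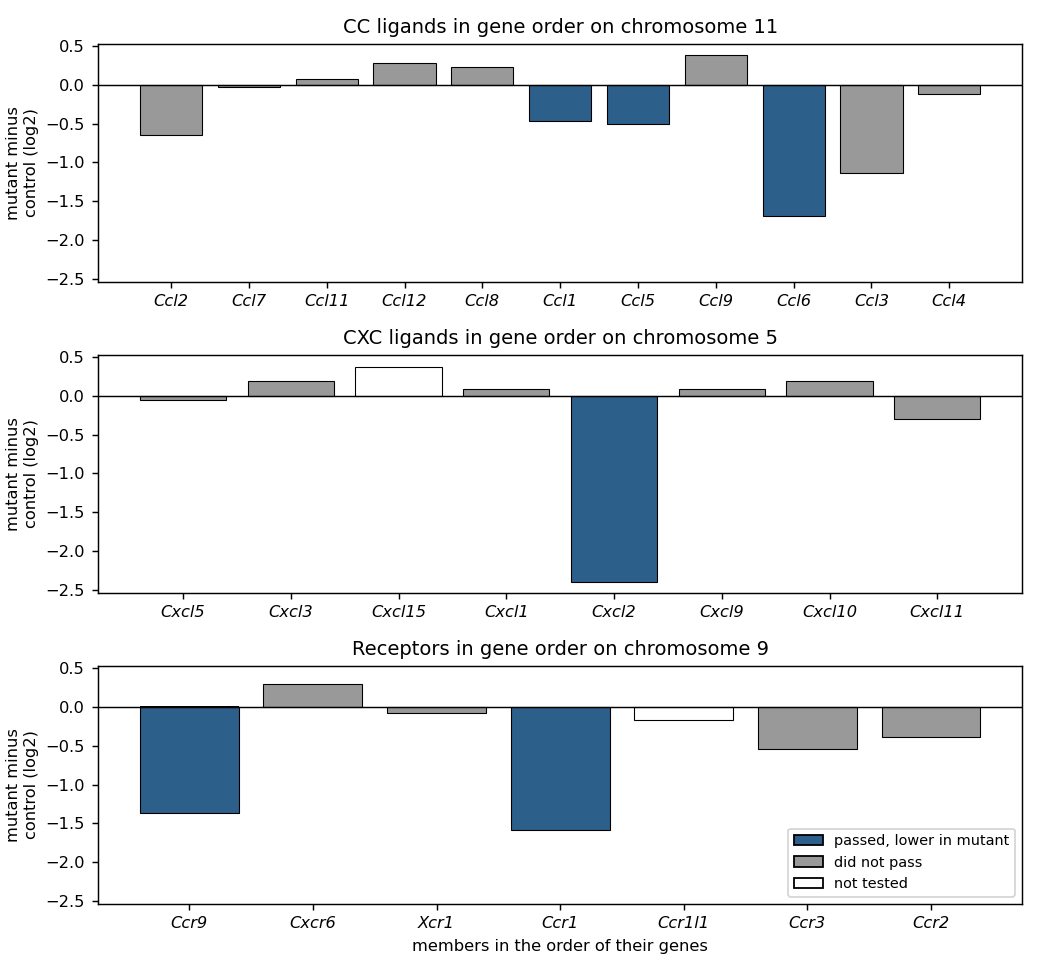
Difference of each member, mutant minus control on the log2 scale, as bars in the order of the genes on chromosomes 11 (CC ligands), 5 (CXC ligands) and 9 (receptors); blue bars passed the test, grey bars did not and white bars were too dim to be tested. Ccl6 (-1.69) and Ccl3 (-1.14) lie between Ccl9 (0.39) and Ccl4 (-0.12), and Cxcl2 (-2.40) lies between Cxcl1 and Cxcl9 (0.09 each). The bars show order and not distance, and Cxcl9 lies much farther from Cxcl2 than Cxcl1 does.

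Set side by side, ligands and their receptors fell into several patterns. Both Cxcl2 (-2.40) and its receptor Cxcr2 (-3.98) fell, while Cxcl1 (0.09), which binds the same receptor, did not pass. Values given here for Cxcr2, Ccr1 and Ackr4 are measured differences that include a group with no array above background. Of the receptors of Cxcl12 (-0.08), Cxcr4 fell (-1.86) and Ackr3 did not pass (-0.04). Ccr1 fell (-1.59), and among its ligands Ccl6 and Ccl5 fell while Ccl3 and Ccl9 did not pass. Ccl19 (1.25) and its scavenger Ackr4 (1.21) rose, while the signalling receptor Ccr7 had a difference of -0.54 that did not pass. The receptors of Ccl1 and Cxcl16, which are Ccr8 and Cxcr6, were below background on all arrays.

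**Figure D5:**
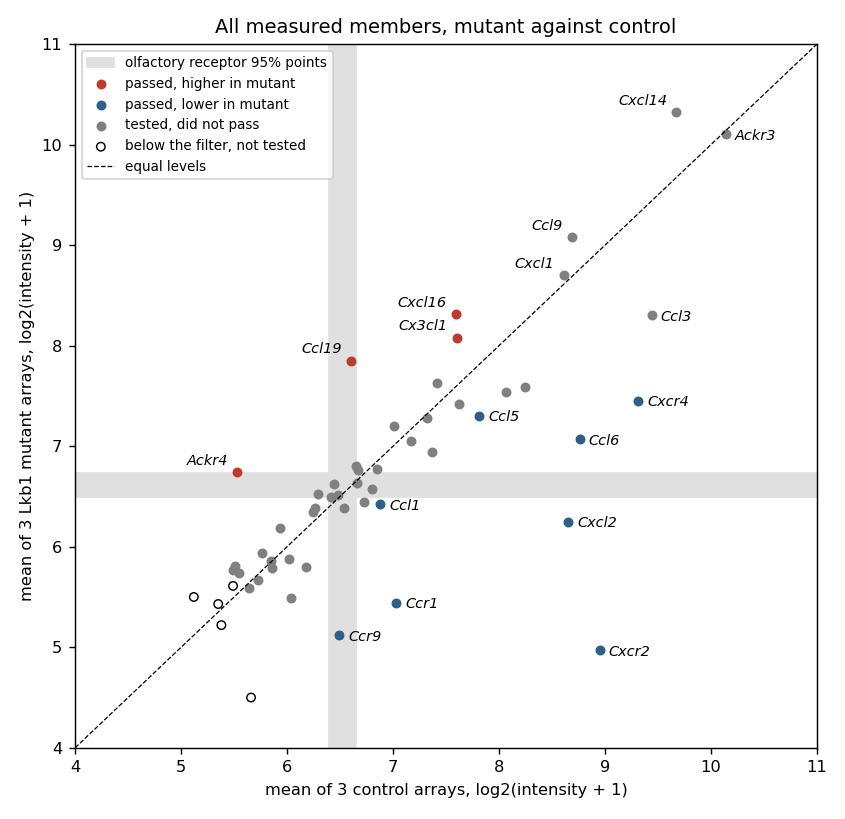
Mean level of all 55 members in 3 Lkb1 mutant arrays (vertical axis) against 3 control arrays (horizontal axis), as log2(intensity + 1); grey bands span the olfactory receptor 95% points of each group's arrays, open circles are members too dim to be tested, and the dashed line marks equal levels. Of the members that passed, Cxcr2, Ccr1, Cxcl2 and Ccl1 are right of the vertical band and not above the horizontal one. Some members that did not pass, Cxcl11 and Ccl28 among them, lie there too. Ackr3 (10.10 in the mutants and 10.14 in the controls) lies on the line.

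The 25 members that were neither called nor above background on all arrays of a group, Cxcl3 and Cxcr5 (given above after their values were seen) among them, lay between 4.28 and 7.13 on every array. Of these, 20 were tested and 0 passed limma's test (smallest adjusted p 0.0827). The differences of all 25 ranged from -1.16 for Cxcr5, which was not tested, to 0.38. The copies of Ccl21 and Ccl27 have only probe sets annotated to several genes and were not analysed here.

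Genes of chemokine biology whose symbols fall outside the rule showed both directions. Of 8 such genes, 3 fell and 1 rose; beside these counts and those of the lists that follow, 6.82% of all genes tested fell and 7.84% rose. Ppbp, a chemokine of platelets, fell by 3.72 (SE 0.71, adjusted p = 0.014), with levels of 6.2, 6.52 and 6.19 in the mutants and 8.12, 10.85 and 11.11 in the controls. No mutant array was above background, and by the bound the mutant mean was at least 10.9-fold lower. That figure leaves out the wide spread of the controls. The measured difference had a 95% interval of -5.37 to -2.08, before adjustment. Control replicate 1 was much lower than the other 2; the adjusted p was 0.0574, 0.0584 and 0.0568 without mutant replicate 1, mutant replicate 3 and control replicate 2, and the difference was -1.81 without control replicates 2 and 3. Ccrl2, a non-signalling receptor that presents chemerin, fell by 2.14 (SE 0.14, adjusted p = 0.000337). Cmklr1, the signalling receptor of chemerin, rose by 1.59 (SE 0.09, adjusted p = 0.000258), at 10.69, 10.80 and 10.80 in the mutants and 9.24, 9.22 and 9.04 in the controls. Both passed under 14 of 14 alternatives. Cklf, a chemokine-like factor, fell by 0.53 (adjusted p = 0.0273), a call lost without each mutant replicate and without control replicate 2 (adjusted p up to 0.115).

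Of 28 genes that carry the signal of chemokine receptors into the cell, 13 fell and 2 rose, with a median difference of -0.30 against 0.03 for all genes tested; the increases are a share close to the 7.84% of all genes. Rac2, a small GTPase of blood cells, fell by 2.51 (adjusted p = 0.00304), and Dock2, which activates Rac in lymphocytes and neutrophils, by 1.87 (adjusted p = 0.00512). Pik3cg, a lipid kinase driven by G proteins, fell by 2.04 (adjusted p = 0.00452) while Rgs18, a G protein regulator of platelets, fell by 2.40 (adjusted p = 0.00544). No mutant array measured Dock2, Pik3cg or Rgs18 above background. By the bound, without the spread between replicates, the mutant means were at least 2.72-fold, 2.31-fold and 2.48-fold lower. Rac2 and these 3 genes passed under 14 of 14 alternatives, and the measured differences of Rac2, Dock2, Pik3cg and Rgs18 were -1.81, -1.39, -1.55 and -1.59 without control replicates 2 and 3. The 2 that rose, named here after their values were seen, were Plcb3 (0.43, adjusted p = 0.0282) and Rac1 (0.29, adjusted p = 0.0495), the GTPase found in nearly every cell. Plcb3 lost its call without mutant replicates 1, 2 or 3 or control replicate 2 (adjusted p up to 0.118), and under median centring (0.0608), and its difference was 0.29 without control replicates 2 and 3. Rac1 kept its call in 4 of 14 alternatives and lost it without each array in turn (adjusted p up to 0.182). G protein subunits used by most cells, such as Gnai2, did not pass.

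Of 17 cytokine and NF-kB genes that can induce chemokines, 5 fell and 1 rose. Il1b, which encodes the inflammatory cytokine interleukin 1 beta, was at 6.64, 6.25 and 6.59 in the mutants and 9.07, 9.17 and 9.50 in the controls, a difference of -2.76 (SE 0.15, adjusted p = 0.000239). Tnfaip3, an inhibitor of NF-kB that NF-kB itself induces, fell by 1.40 (adjusted p = 0.00228), and without control replicates 2 and 3 the difference was -1.11. Il1rn, the interleukin 1 receptor antagonist, fell by 1.11 (adjusted p = 0.03), a call lost without each mutant replicate and without control replicate 2 (adjusted p up to 0.106). Il6, in contrast, was at 7.76, 8.47 and 8.08 in the mutants and 7.01, 6.16 and 5.74 in the controls and rose by 1.80 (SE 0.32, adjusted p = 0.0107). The controls spread widely, and the Il6 difference was 1.10 without control replicates 2 and 3.

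Of 14 genes by which leukocytes adhere and cross vessel walls, 5 fell and 2 rose. Of the integrin chains of leukocytes in this list, 4 fell, while Itgb7, named after its values were seen, did not pass (difference -0.21, adjusted p = 0.326) and was below background on all arrays. Itga4 fell by 2.16 (adjusted p = 0.0112), Itgam by 1.99 (0.00628), Itgb2 by 1.99 (0.00609) and Itgal by 1.46 (0.0188). No mutant array measured Itga4 or Itgal above background. By the bound, without the spread between replicates, the mutant means were at least 3.23-fold and 2.1-fold lower. The measured differences of Itga4, Itgam, Itgb2 and Itgal were -1.35, -1.35, -1.33 and -0.82 without control replicates 2 and 3. The adjusted p of Itga4 was 0.0508 without mutant replicate 3, and Itgal lost its call without each mutant replicate and without control replicate 2 (adjusted p up to 0.0736). The 2 that rose, named after their values were seen, were Jam3 (0.82, adjusted p = 0.00868) and Sele (0.75, adjusted p = 0.0375). Jam3 encodes a junction protein and Sele an endothelial selectin. Other genes of the list, Icam1 (0.46), Pecam1 (0.46), Jam2 (0.46), F11r (0.31), Icam2 (-0.14) and Vcam1 (-0.56), did not pass. Sele lost its call without each mutant replicate, without control replicate 1 and without control replicate 3 (adjusted p up to 0.136). The neutrophil and B lymphoid markers given above were lower, the macrophage and endothelial markers higher and the T cell markers not called on the same arrays, and their part in these lists was not tested.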

How the data were processed

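Per the labels' protocols, RNA was purified on columns, and biotin-labelled cDNA was made from 300 ng of it. The authors deposited linear intensities of 35512 probe sets on 6 arrays; the sources used here do not give how probes were summarised or normalised. Gene symbols came from the platform annotation and were brought up to date with RefSeq symbols of assembly GRCm38.p6: 21789 had 1 gene, 1621 several and 12102 none listed. Of a gene's probe sets the one with the highest mean was used.

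Intensities were transformed to log2(intensity + 1), probe sets in the lowest 25% by mean (below 5.56) were left out, and 17020 genes were tested with limma 3.58.1 in R 4.3.3 (two-sided, Benjamini-Hochberg adjusted, call at 0.05). The test was checked on simulated data. An exact permutation test of 3 against 3 arrays was not used. Samples were grouped by title. Named are members that were called or exceeded the background on all arrays of a group, and up to 4 called genes of each further list with the largest change. The members and lists were chosen with earlier results of these data known. Alternatives were other normalisations, filters, probe set rules, a pseudocount of 16, an intensity trend, a replicate block and leaving out each array; the value without 2 control arrays was added after seeing the data. The NF-kB motif was shortened after a longer, looser pattern had been searched. Same-numbered mutant and control arrays correlated at 0.0803, 0.213 and -0.0833 in their deviations from the group means, so the numbers were not taken as pairs.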

Additional observations from a re-analysis of the deposited data

How the results depend on the processing

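The count of genes called, 2496, fell to 936 to 1198 without a mutant replicate and lay between 1329 and 3282 without a control replicate. Members called higher numbered 4, and 2 to 5 when single arrays were left out. Members called lower numbered 8, and 5 to 10 when single arrays were left out. Members above background numbered 28, and 17 at the 99% point or 52 at the median of the olfactory receptor probe sets. With the replicate number as a block, which labels do not show to be a pairing, 2031 genes were called, 4 members higher and 10 lower, with Ccl2 (adjusted p = 0.0369) and Ccr7 (0.0403) added; among other named genes Cklf (0.0539), Plcb3 (0.052) and Rac1 (0.11) lost their calls. No other setting of normalisation, filter or variance moved the member counts by more than 1.5 times. Without the filter on dim probe sets 9 members were lower. Signs turned for uncalled members near 0 when single arrays were left out: Ccl7 ranged from -0.42 to 0.29, Cx3cr1 from -0.14 to 0.07, Cxcl12 from -0.20 to 0.01 and Cxcl17 from -0.37 to 0.01. Without control replicates 2 and 3 Cx3cr1 was 0.20 and Cxcl17 was 0.15. The cause was not tested. Signal near the olfactory receptor level limits the size of the differences of dim members.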
